A study of Mus musculus with 12 samples.

Results

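Chemokines are small secreted proteins that direct the movement of white blood cells by binding G protein-coupled receptors. Genes for 10 of them were followed here in macrophages of mouse bone marrow: the CXC ligands Cxcl16, Pf4, Cxcl2 and Cxcl10 and the CC ligands Ccl2, Ccl3, Ccl4, Ccl6, Ccl7 and Ccl9. They were chosen by name, with earlier results of these data known, as the 10 of 23420 gene rows of the count table whose symbol matched. Of the 10, 9 passed the filter on low counts and were tested among 11806 genes, and Ccl7 did not.

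In bone marrow, macrophages and monocytes are a main source of such signals. Ccl2 and Ccl7 act on Ccr2, which monocytes need to leave the marrow, and Cxcl2 acts on Cxcr2, which draws neutrophils out of it. Ccl3 and Ccl4 attract monocytes and T cells, Ccl3, Ccl6 and Ccl9 act on Ccr1, and Cxcl10 is an interferon-induced ligand of Cxcr3. Cxcl16 stands apart as a ligand made with a membrane anchor, which binds Cxcr6 on T and NK cells and also takes up oxidised lipoprotein. Pf4, platelet factor 4, is best known from the granules of platelets and their precursors, the megakaryocytes.

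The 12 bulk RNA-seq libraries came from macrophages sorted from marrow nucleated cells of 2 mice, numbered 7 and 19, which the labels keep on a C57BL/6J background and list as strain C57BL/6. From each mouse there were 3 libraries of the tibia, a bone that had received mesenchymal stromal cells (MSCs, which support blood formation), and 3 of the femur, which was left untreated. The labels name the tibia cells MSC-educated macrophages, and leukaemic marrow is the setting named in the title of the series. Whether these mice carried leukaemia, how and when the MSCs were given, the age and sex of the mice and the markers used for sorting are not stated in the labels. Treatment and bone always change together, so an effect of the MSCs and a difference between tibia and femur cannot be told apart.

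Total counts per library ran from 9773455 to 14869150. A count of 2 was 3.26 times as common as a count of 1, so most fragments appear to have been counted at both ends, and a count of 0 allows up to 6 counts, which are 3 fragments. The macrophage genes Csf1r (783 to 1130 CPM, TMM-scaled read counts relative to the library total), Emr1, which encodes F4/80 (240 to 365 CPM), and Cd68 (256 to 301 CPM) were high in every library, while Mertk of resident macrophages was at 3.5 to 12.1 CPM. Of 13 macrophage markers 3 rose and 1 fell between the bones. Monocyte genes were high as well, with Ccr2 at 1840 to 2410 CPM and Ly6c2 at 873 to 1080 CPM. Monocyte markers summed to 25900 to 27000 CPM in the femur and 24000 to 24900 CPM in the tibia, so the sorted cells carried much monocyte RNA. Neutrophil transcripts were also plentiful, with S100a8 at 3300 to 6460 CPM. T and NK cell markers summed to 11.6 to 31.8 CPM and stromal markers to 2.67 to 10.5 CPM. The labels do not say whether the 3 libraries of a bone came from separate sorts or from the same RNA, so p-values over 12 libraries measure the spread between libraries, which may be technical. For that reason the comparison of tibia with femur over both mice was also run on counts summed per mouse and bone, with 2 animals per side. Contrasts within a mouse and between the mice have no such version, and their p-values rest on the spread between libraries only. In bulk RNA, fewer cells of a type and less RNA per cell cannot be told apart.

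Between treated tibia and untreated femur, the membrane-anchored ligand Cxcl16 and the platelet-type ligand Pf4 rose, and no ligand fell. Cxcl16 was 2.01-fold higher and Pf4 2.92-fold higher in the tibia. The rarest ligand, Ccl7, was also counted more often there in both mice. The 7 others did not pass the test over both mice. The count of 2 higher of 9 tested stands beside 3.51% of all genes higher, and that of 0 lower beside 3.69% of all genes lower (edgeR quasi-likelihood test with the mouse as a term, Benjamini-Hochberg adjusted p under 0.05). Pf4 entered the test through its tibia libraries, and the ligands were chosen with earlier results of these data known. The count is therefore a description of these ligands. No ligand was lower at an unadjusted p under 0.05 in edgeR either, and DESeq2 called 2 higher and 0 lower. The median log2 fold change of the 9 ligands was 0.00, against -0.002 for all genes tested.

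**Figure D1:**
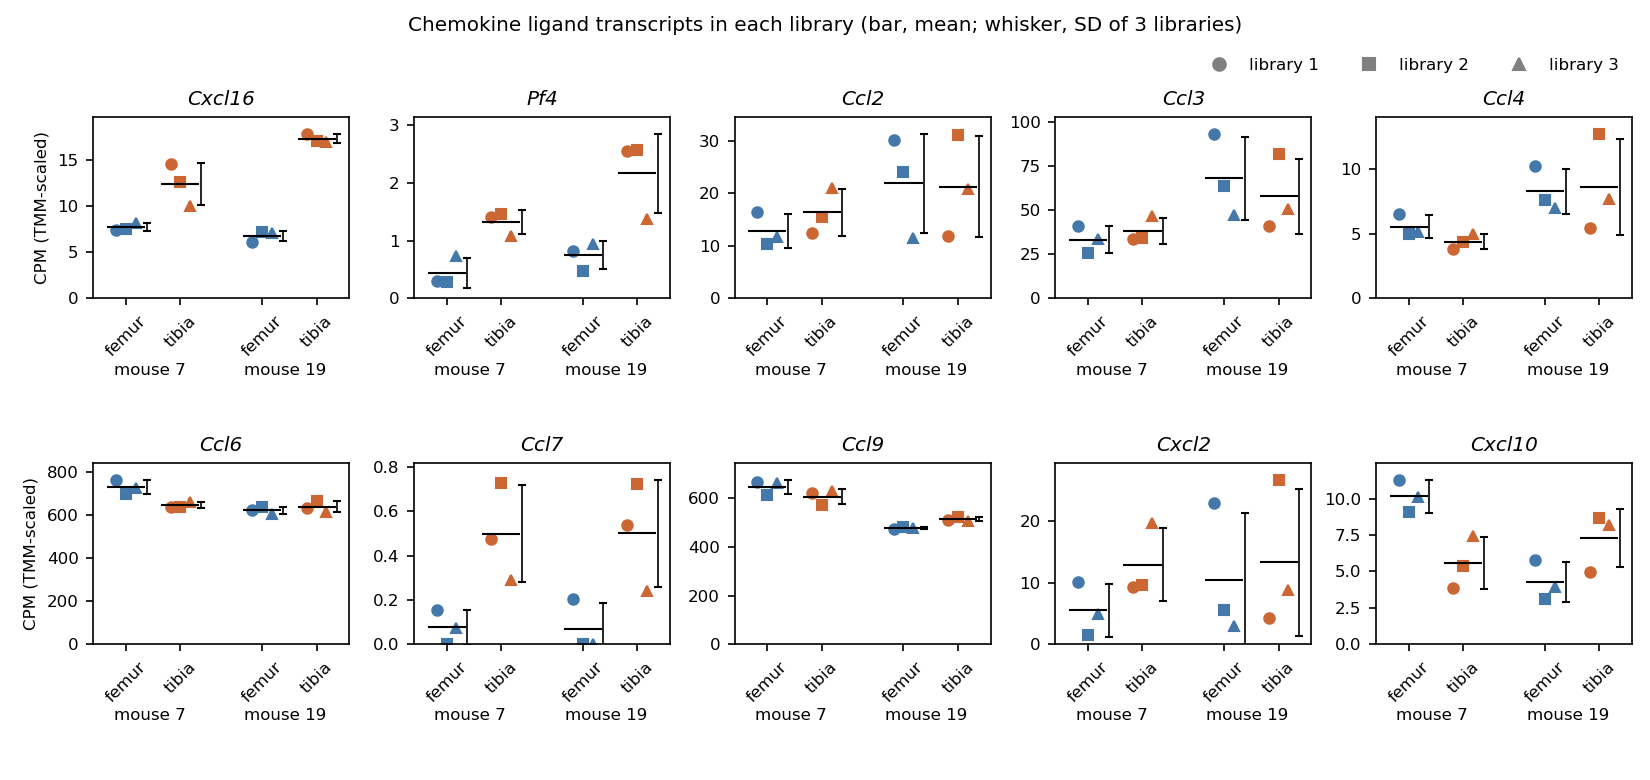
Level of each of the 10 chemokine ligand transcripts in every library, in CPM over TMM-scaled library sizes, by mouse and bone; blue is untreated femur, orange is MSC-treated tibia, the horizontal bar is the mean and the whisker the SD of 3 libraries, and each panel has its own scale starting at 0. For Cxcl16, Pf4 and Ccl7 the 6 tibia libraries lie above the 6 femur libraries, while for Cxcl10 the tibia lies below the femur in mouse 7 and its mean lies above in mouse 19.

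Cxcl16 lies at chr11:70454389-70459984 (GRCm38.p6, the assembly that mm10 names). In mouse 7 its femur libraries stood at 7.46, 7.57 and 8.21 CPM and its tibia libraries at 14.6, 12.7 and 10 CPM. In mouse 19 the femur libraries stood at 6.17, 7.17 and 7.07 CPM and the tibia libraries at 17.9, 17.1 and 17.0 CPM. Every tibia library was above every femur library, and the tibia of mouse 19 was the highest of the 4 groups. Means were 7.28 ± 0.674 CPM in the femur and 14.9 ± 3.07 CPM in the tibia (SD, n = 6 libraries each).

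The log2 fold change of Cxcl16 was 1.01 ± 0.12 (SE; edgeR adjusted p = 7.6e-06), and it held when any 1 of the 12 libraries was left out (0.95 to 1.10). On sums per mouse and bone the edgeR adjusted p was 0.0157, where 0.551% of all genes were called in either direction. Leaving out 1 library before summing ended this call in 6 of 12 cases: femur 2, tibia 1 or tibia 3 of mouse 7, and femur 1, tibia 1 or tibia 3 of mouse 19 (edgeR adjusted p = 0.0696 to 0.204). Within mouse 7 the change was 0.68 ± 0.14 (edgeR adjusted p = 0.00225) and within mouse 19 it was 1.34 ± 0.15 (edgeR adjusted p = 1.1e-07). The difference between the animals, 0.66 ± 0.21, missed the threshold (edgeR adjusted p = 0.0624) and passed it without tibia 1 of mouse 7 (0.79, edgeR adjusted p = 0.0263).

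Pf4 (chr5:90772435-90773383) was a rare transcript. Its counts in mouse 7 were 4, 4 and 10 in the femur and 18, 20 and 15 in the tibia, and in mouse 19 they were 8, 6 and 12 in the femur and 38, 32 and 17 in the tibia. Again no tibia library fell within the range of the femur, although single libraries rested on few fragments. Pf4 passed the filter on low counts, with its minimum count of 10, through its tibia libraries, since most femur libraries were under that count. Its entry into the test thus already depended on a high level in the tibia. The sum of 140 counts over the tibia libraries, against 44 over those of the femur, gave a depth-scaled ratio of 3.02 with an exact 95% counting interval of 1.85 to 5.13, computed on halved counts and covering counting error only.

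The log2 fold change of Pf4 was 1.55 ± 0.31 (edgeR adjusted p = 0.00244), and the changes within the mice were 1.56 ± 0.48 in mouse 7 (edgeR adjusted p = 0.036) and 1.54 ± 0.42 in mouse 19 (edgeR adjusted p = 0.0277). The call over both mice held without any 1 library (1.42 to 1.73), while each within-mouse call was lost in 5 of 12 cases. In mouse 7 these were all of its libraries but femur 3 (edgeR adjusted p = 0.0599 to 0.169), and in mouse 19 all but tibia 3 (edgeR adjusted p = 0.0546 to 0.162). The call over both mice also missed the threshold on sums per mouse and bone (edgeR adjusted p = 0.0721) and without the mouse term (edgeR adjusted p = 0.053).

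Because Pf4 is a platelet product, the other genes of megakaryocytes and platelets were read beside it. Of 14 such markers 7 were tested, 0 rose (edgeR; 1 at an unadjusted p under 0.05, and 0 by DESeq2) and 1 fell. That one was the integrin Itgb3 (log2 -0.46 ± 0.05, edgeR adjusted p = 3.5e-06), and Itga2b, its partner on platelets, was at 5.75 CPM in the femur and 5.23 CPM in the tibia (edgeR adjusted p = 0.563). The 14 markers summed to 55.7 to 87.9 CPM in the femur and 44.6 to 69.5 CPM in the tibia. Most of this was Itgb3 alone, with means of 49.5 CPM in the femur and 36.2 CPM in the tibia, so the sums mainly follow that gene. Of the 14 markers, 7 stayed below 1 CPM in every library. Among these, the platelet glycoprotein Gp9 averaged 0.364 CPM in the femur and 0.298 CPM in the tibia, and Ppbp, a platelet chemokine encoded close to Pf4, averaged 0.135 and 0.441 CPM. Granulocyte precursor markers moved in the same direction as Cxcl16 and Pf4: 6 of 8 rose, summing to 831 to 1680 CPM in the femur and 1180 to 2060 CPM in the tibia, and 5 of 14 monocyte markers fell. Their part in the change of either ligand was not tested.

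Ccl7 (chr11:82045712-82047525), a monocyte attractant, was counted 2, 0 and 1 times in the femur libraries of mouse 7 and 6, 10 and 4 times in its tibia libraries. In mouse 19 the counts were 2, 0 and 0 in the femur and 8, 9 and 3 in the tibia. The tibia libraries were all above the femur libraries, but the femur libraries were all under the 6 counts that a count of 0 allows, as were tibia 3 of mouse 7 and tibia 3 of mouse 19, so single libraries do not separate beyond counting error. Over both mice the tibia had 40 counts against 5 for the femur, a depth-scaled ratio of 7.60 with an exact 95% counting interval of 2.31 to 83.8. In a fit with no filter on low counts its log2 fold change was 2.74 ± 0.82 (edgeR adjusted p = 0.0175). That fit gave Cxcl16 and Cxcl2 much lower adjusted p-values at nearly the same size of change, so the value for Ccl7 is given with caution. Cxcl16, Pf4 and Ccl7 were the only ligands of the 10 with all tibia libraries above all femur libraries in both mice; among the 11806 genes tested, the groups stood apart in this direction within both mice for 2.45% and in the opposite direction for 2.75%.

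The 2 most abundant ligands were not called between the bones. Ccl6 (chr11:83587886-83593087) and Ccl9 (chr11:83572917-83578636) are neighbouring genes of the mouse, expressed by myeloid cells. Together they made up 86.6 to 95.7% of the summed CPM of the 10 ligands in a library. Ccl6 averaged 678 ± 63.8 CPM in the femur and 644 ± 18.3 CPM in the tibia, and Ccl9 averaged 563 ± 95.6 and 561 ± 55.2 CPM (SD, n = 6 libraries each). The log2 fold changes were -0.07 ± 0.04 for Ccl6 (edgeR adjusted p = 0.285) and 0.00 ± 0.04 for Ccl9 (edgeR adjusted p = 0.966).

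Within single animals, Ccl6 passed the test in mouse 7 and Ccl9 in neither mouse. Ccl6 stood at 767, 699 and 730 CPM in the femur of mouse 7 and at 639, 638 and 663 CPM in its tibia, so the groups did not overlap. In mouse 19 it stood at 626, 640 and 606 CPM in the femur and at 637, 667 and 618 CPM in the tibia, which overlapped. The change of Ccl6 was -0.18 ± 0.04 in mouse 7 (edgeR adjusted p = 0.00275) and 0.04 in mouse 19 (edgeR adjusted p = 0.683). The difference between the animals was 0.22 ± 0.06 (edgeR adjusted p = 0.0151), and it was lost without femur 1 of mouse 7 (edgeR adjusted p = 0.0803), femur 3 of mouse 19 (0.0565) or tibia 2 of mouse 19 (0.0562).

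Ccl9 stood at 668, 616 and 663 CPM in the femur and 622, 572 and 629 CPM in the tibia of mouse 7. In mouse 19 it stood at 473, 484 and 477 CPM in the femur and 510, 523 and 509 CPM in the tibia, where the groups did not overlap. Its changes were -0.10 in mouse 7 (edgeR adjusted p = 0.131) and 0.11 in mouse 19 (edgeR adjusted p = 0.132). Their difference, 0.20 ± 0.06, passed (edgeR adjusted p = 0.0307) and was lost in 8 of 12 cases when 1 library was left out: any but femur 2, tibia 1 or tibia 3 of mouse 7 and tibia 3 of mouse 19 (edgeR adjusted p = 0.0512 to 0.127).

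The promoters of some ligands are given for reference, from the RefSeq table of GRCm38.p6, which matched 6 of the 10 (Pf4, Ccl3, Ccl6, Ccl9, Cxcl2 and Cxcl10). Each window covers the 250 bases before the start site, read in the direction of the gene, with motif matches on either strand in capitals. The motifs searched were NF-kB by name, AP-1 as TGANTCA and the core of the interferon-stimulated response element (ISRE) as GAAANNGAA; they were present in 3.90%, 6.75% and 7.13% of 32851 windows of the same length. The 4 windows shown belong to Ccl6, the ligand with the highest level, to Cxcl2 and Ccl3, which varied together from library to library, and to Cxcl10, whose change went in opposite directions in the 2 mice.
Ccl6, chr11:83593088-83593337, minus strand: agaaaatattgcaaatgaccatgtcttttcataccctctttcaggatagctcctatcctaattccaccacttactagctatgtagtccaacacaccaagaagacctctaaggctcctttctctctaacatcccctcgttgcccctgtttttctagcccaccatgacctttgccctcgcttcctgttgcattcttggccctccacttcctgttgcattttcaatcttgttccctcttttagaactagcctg
Cxcl2, chr5:90903649-90903898, plus strand: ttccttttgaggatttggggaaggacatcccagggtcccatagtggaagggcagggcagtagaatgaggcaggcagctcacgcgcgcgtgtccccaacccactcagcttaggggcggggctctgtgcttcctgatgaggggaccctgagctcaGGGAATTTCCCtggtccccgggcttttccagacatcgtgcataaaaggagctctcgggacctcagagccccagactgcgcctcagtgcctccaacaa
Ccl3, chr11:83649379-83649628, minus strand: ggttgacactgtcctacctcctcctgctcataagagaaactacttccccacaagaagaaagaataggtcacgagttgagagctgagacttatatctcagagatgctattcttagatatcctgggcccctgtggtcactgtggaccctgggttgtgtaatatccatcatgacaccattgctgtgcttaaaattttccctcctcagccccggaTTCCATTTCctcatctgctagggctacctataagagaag
Cxcl10, chr5:92348890-92349139, minus strand: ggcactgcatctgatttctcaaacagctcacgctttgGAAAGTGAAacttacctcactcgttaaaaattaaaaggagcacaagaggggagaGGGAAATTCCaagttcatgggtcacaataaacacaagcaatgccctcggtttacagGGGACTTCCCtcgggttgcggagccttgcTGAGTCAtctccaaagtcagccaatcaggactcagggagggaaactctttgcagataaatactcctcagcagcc

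The Ccl6 window held none of the 3 motifs, nor did that of Pf4. Cxcl2 held a pair of overlapping NF-kB matches starting 97 and 96 bases before the start site, and Ccl3 held 1 match to the ISRE core 39 bases before it. Cxcl10 held matches to all 3: NF-kB at 159 and 103 bases, AP-1 at 74 bases and the ISRE core at 213 bases before the start. Ccl9 held 1 NF-kB and 1 AP-1 match. A match describes letters only, and no binding was measured here.

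The ligands that stimulated macrophages make quickly, Ccl2, Ccl3, Ccl4 and Cxcl2, did not pass the test between the bones over both mice, and their spread among libraries was wide. Cxcl2 (chr5:90903899-90905938), the neutrophil attractant, stood at 10.1, 1.54 and 4.95 CPM in the femur and 9.33, 9.69 and 19.7 CPM in the tibia of mouse 7. In mouse 19 it stood at 22.9, 5.50 and 2.99 CPM in the femur and 4.24, 26.7 and 8.88 CPM in the tibia. Libraries of the same bone and mouse thus differed by 2.11- to 7.68-fold, and the groups overlapped in both mice. The log2 fold change of Cxcl2 was 0.80 ± 0.42 (edgeR adjusted p = 0.283; 1.25 ± 0.54 in mouse 7 and 0.40 ± 0.52 in mouse 19). Leaving out 1 library moved it from 0.45 without tibia 2 of mouse 19 (edgeR adjusted p = 0.643) to 1.40 without femur 1 of mouse 19 (edgeR adjusted p = 0.0276), the 1 such case that passed. Within mouse 7 it ran from 0.79 without femur 2 to 2.00 without femur 1 of that mouse and passed in none. On sums per mouse and bone the change of Cxcl2 was 0.84 ± 0.18 and missed the threshold (edgeR adjusted p = 0.0721, as for Pf4). With 1 library left out before summing, Cxcl2 passed in 3 of 12 cases (edgeR adjusted p = 0.00706 to 0.0448) and Pf4 in 1 of 12. Over both mice it also passed in the fit with no filter on low counts at nearly the same size (0.80, edgeR adjusted p = 1.57e-10). In that fit the edgeR adjusted p of Cxcl16 also fell, from 7.6e-06 to 6.07e-18, at the same size of 1.01. The pass of Cxcl2 there is therefore not read as a rise.

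Ccl3 (chr11:83647843-83649378), an attractant of monocytes and T cells, stood at 40.8, 25.7 and 33.6 CPM in the femur and 33.8, 34.0 and 46.7 CPM in the tibia of mouse 7. In mouse 19 it stood at 93.3, 63.5 and 47.0 CPM in the femur and 41.2, 81.7 and 50.5 CPM in the tibia. The bones overlapped in both mice, and mouse 19 had the higher values. The log2 fold change over both mice was -0.03 ± 0.16 (edgeR adjusted p = 0.946). Its neighbour Ccl4 (chr11:83648624-83664683), whose annotated span overlaps that of Ccl3, had a log2 fold change of -0.12 ± 0.17 (edgeR adjusted p = 0.765). The labels do not say how reads in the shared stretch were assigned, so the values of these 2 genes are uncertain to that extent.

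Ccl4 ran from 4.98 to 6.54 CPM in the femur and from 3.80 to 4.96 CPM in the tibia of mouse 7, which did not overlap, and from 6.99 to 10.2 CPM and from 5.46 to 12.7 CPM in mouse 19. The change of Ccl4 within mouse 7 was -0.33 and did not pass the test (edgeR adjusted p = 0.459). Ccl2 (chr11:82035577-82037452), the main ligand of Ccr2, stood at 16.5, 10.3 and 11.7 CPM in the femur and 12.4, 15.6 and 21.1 CPM in the tibia of mouse 7. Its values in mouse 19 were 30.1, 24.1 and 11.6 CPM in the femur and 11.9, 31.1 and 20.8 CPM in the tibia. Both pairs of groups overlapped, and the log2 fold change was 0.15 ± 0.20 (edgeR adjusted p = 0.732).

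These 4 ligands, grouped after their values were seen, went up and down together among libraries of the same bone and mouse. The log2 CPM deviations of any pair of them from the mean of their own bone and mouse correlated with r of 0.88 to 0.98 over 12 libraries that share 4 group means, given as a description. This was not particular to them: Cxcl10 (r of 0.71 to 0.78) and Ccl6 (0.61 to 0.75) also went with them. Cxcl16 went the opposite way (-0.55 to -0.48). Ccl2, Ccl3, Ccl4 and Cxcl2 were all highest in the same libraries: femur 1 and tibia 3 of mouse 7, and femur 1 and tibia 2 of mouse 19. Their mean deviation was 0.51, -0.50 and -0.00 on the log2 scale in femur libraries 1 to 3 of mouse 7 and -0.26, -0.12 and 0.39 in its tibia libraries. In mouse 19 it was 0.74, -0.07 and -0.66 in the femur and -0.71, 0.79 and -0.08 in the tibia. The replicate numbers carry no order, and no bone was the higher throughout.

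Immediate early genes, which cells switch on within minutes of a stimulus, deviated in the same libraries. Of 25 tested genes of a list of immediate early and heat shock genes, 18 had an r above 0.8 with the mean deviation of the 4 ligands, and the median r was 0.94. Among 8507 genes with a mean of at least 10 CPM, 1.28% had an r above 0.8 and the median was -0.012. The phosphatase Dusp1 (r = 0.995) and the AP-1 subunits Jun (0.992) and Fos (0.989) followed the ligands most closely. The list's median deviation ran from -0.301 in femur 3 to 0.301 in femur 1 of mouse 19, and it was 0.314 in tibia 2. Its part in the spread of the ligands was not tested.

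**Figure D2:**
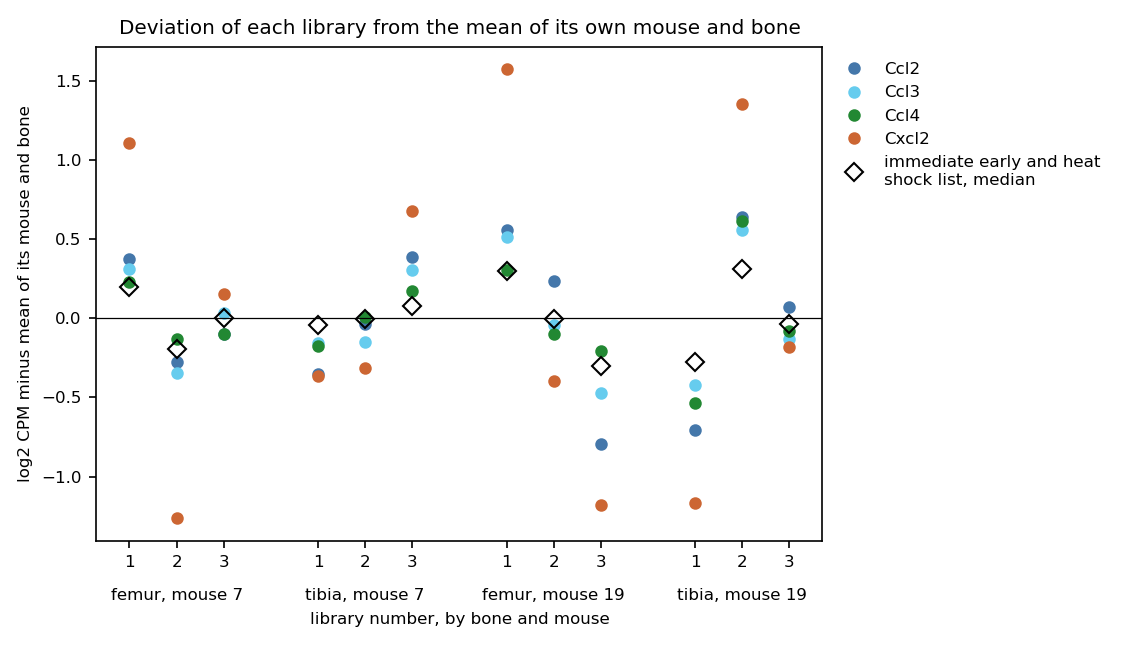
Deviation of each library from the mean of its own mouse and bone, in log2 CPM, for the ligands Ccl2, Ccl3, Ccl4 and Cxcl2 (filled circles) and for the median of the immediate early and heat shock list (open diamonds). The 4 ligands and the list were all above 0 in femur 1 and tibia 3 of mouse 7 and in femur 1 and tibia 2 of mouse 19, with Cxcl2 deviating the most.

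Between the bones, 1 gene of that list rose and 3 fell. The gene that rose was Ier3 (log2 0.62 ± 0.19, edgeR adjusted p = 0.047; DESeq2 called none of the list higher), and the 3 that fell encode heat shock proteins. The inducible Hspa1a fell by 1.99 ± 0.13 on the log2 scale (edgeR adjusted p = 5.4e-11) and Hspa1b fell by 1.98 ± 0.12 (edgeR adjusted p = 4.4e-11). Hspa8, which is made at all times, fell by 0.14 ± 0.03 (edgeR adjusted p = 0.00419), with -0.23 in mouse 7 and -0.05 in mouse 19 (edgeR adjusted p of the difference = 0.0173). Among 9 tested cytokine and mediator genes that NF-kB induces, 3 rose and 0 fell (edgeR; 0 lower also at an unadjusted p under 0.05, while DESeq2 called 1 higher). They were the nitric oxide synthase Nos2 (2.53 ± 0.42, edgeR adjusted p = 4.7e-04), Ptgs2, which makes prostaglandins (0.78 ± 0.21, edgeR adjusted p = 0.0253), and the cytokine Il1b (0.34 ± 0.11, edgeR adjusted p = 0.0464). The change of Il1b was -0.04 in mouse 7 (edgeR adjusted p = 0.842) and 0.77 in mouse 19 (edgeR adjusted p = 5.7e-07), and the difference passed (edgeR adjusted p = 8.7e-05). Nos2 was at 0.256 ± 0.256 CPM in the femur and 1.63 ± 1.59 CPM in the tibia (SD). It entered the test through its tibia libraries, as Pf4 did, so its call already depended on a high level there. It passed within mouse 19 (2.72, edgeR adjusted p = 2.6e-04) and not within mouse 7 (1.49, edgeR adjusted p = 0.399). Ptgs2 passed in neither mouse alone (0.73 in mouse 7 and 0.86 in mouse 19, edgeR adjusted p = 0.0877 and 0.114).

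Cxcl10 (chr5:92346638-92348889), the interferon-induced ligand, went in opposite directions in the 2 mice. In mouse 7 it stood at 11.3, 9.05 and 10.1 CPM in the femur and 3.88, 5.39 and 7.44 CPM in the tibia, with every tibia library lower. In mouse 19 it stood at 5.76, 3.11 and 3.93 CPM in the femur and 4.99, 8.67 and 8.16 CPM in the tibia, with tibia 1 within the range of the femur. The log2 fold change was -0.86 ± 0.22 in mouse 7 (edgeR adjusted p = 0.0108) and 0.78 ± 0.24 in mouse 19 (edgeR adjusted p = 0.0563), and over both mice it was -0.11 ± 0.24 (edgeR adjusted p = 0.841). The difference between the animals, 1.64 ± 0.33, passed the test (edgeR adjusted p = 0.0018) and held without any 1 library (1.44 to 1.90).

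The changes of Cxcl10 within single mice lay near the threshold. The fall in mouse 7 was lost without femur 1 (-0.77, edgeR adjusted p = 0.0608) or tibia 1 (-0.66, edgeR adjusted p = 0.0758) of that mouse. The change in mouse 19 passed in 4 of 12 cases: without tibia 1 or tibia 3 of mouse 7, or without femur 1 or tibia 1 of mouse 19 (edgeR adjusted p = 0.0145 to 0.0448).

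Other interferon-induced genes followed the same split. Of 18 tested, 0 rose (0 also at an unadjusted p under 0.05, edgeR) and 12 fell in mouse 7, with a median log2 fold change of -0.31, while in mouse 19 there were 4 that rose and 0 that fell (1 at an unadjusted p under 0.05), with a median of 0.27. The difference between the mice passed for 12 of the 18, among them Cxcl9, a second Cxcr3 ligand (-1.18 in mouse 7 and 0.57 in mouse 19, edgeR adjusted p of the difference = 0.00208). Over both mice 0 of the 18 rose (0 also at an unadjusted p under 0.05, edgeR, and 0 by DESeq2) and 1 fell. The summed level of the list was 1160 to 1220 CPM in the femur and 967 to 973 CPM in the tibia of mouse 7, and 635 to 650 CPM and 667 to 718 CPM in mouse 19. The part of the list's level in the split of Cxcl10 was not tested.

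Within mouse 7, 2 of the 9 ligands tested rose (Cxcl16 and Pf4) and 2 fell (Ccl6 and Cxcl10), against 4.37% of all genes higher and 5.36% lower. Within mouse 19, 2 rose (Cxcl16 and Pf4) and 0 fell (0 also at an unadjusted p under 0.05, edgeR), against 2.96% higher and 2.21% lower. Pf4 entered the test through its tibia libraries, and under the settings that leave it out 1 ligand rose in each mouse. These counts therefore describe the ligands only. The difference between the mice passed for 3 of 9 (Ccl6, Ccl9 and Cxcl10), against 4.74% of all genes. In each of the 3 the change in mouse 19 was the more positive.

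**Figure D3:**
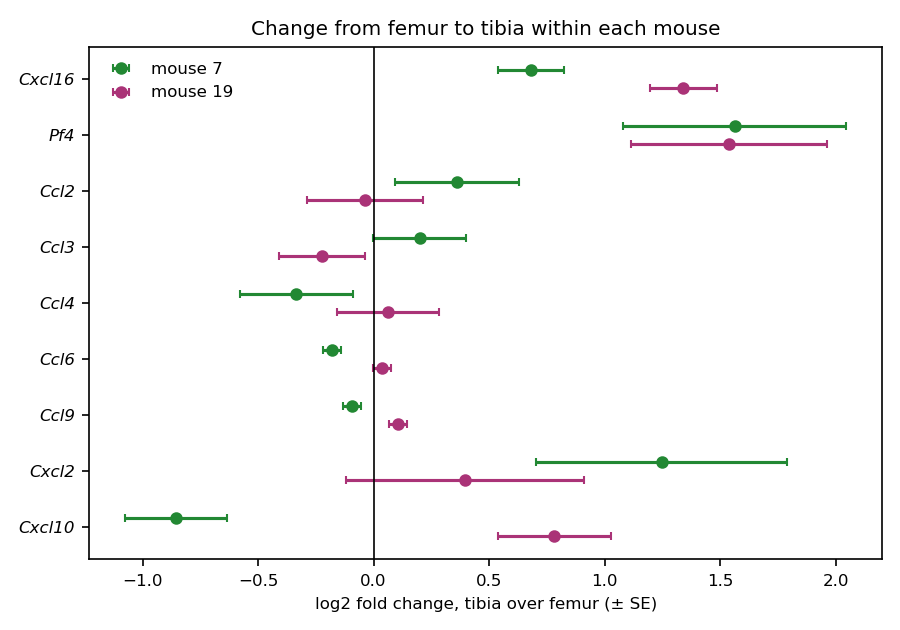
Log2 fold change of tibia over femur for each of the 9 ligands tested, within mouse 7 (green) and within mouse 19 (purple), with bars for the standard error of the edgeR model with 1 mean per mouse and bone. Cxcl16 and Pf4 lie to the right of 0 in both mice, and Cxcl10 lies at -0.86 in mouse 7 and 0.78 in mouse 19.

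The untreated femurs of the 2 animals already differed for 5 of the 9 ligands, against 28.4% of all genes. Cxcl10 was lower in mouse 19 than in mouse 7 (log2 -1.27, edgeR adjusted p = 9.9e-05), as were Ccl9 (-0.44, edgeR adjusted p = 4.3e-10) and Ccl6 (-0.23, edgeR adjusted p = 3.0e-05). Ccl3 was higher in mouse 19 (1.02, edgeR adjusted p = 1.8e-04), and so was Ccl2 (0.76, edgeR adjusted p = 0.0304). For these 5 the difference between 2 untreated animals was larger in size than the change between bones over both mice. They were picked for passing between the femurs, and none was called between the bones, so this order was largely set in advance. For Cxcl10 the change over both mice also averages opposite changes in the 2 animals. Femur levels of Cxcl16 did not pass the test between the animals (-0.18, edgeR adjusted p = 0.432), nor did those of Pf4 (0.74, edgeR adjusted p = 0.338). With 1 animal on each side this describes these mice and no others.

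Per kilobase of exon, which allows genes to be compared with each other, the order of the ligands was nearly the same in both bones. Ccl6 led with 378 CPM per kilobase in the femur and 359 in the tibia, followed by Ccl9 with 185 and 184 and by Ccl3 with 66.1 and 62.6. Ccl2 came next with 15.3 and 16.5, then Ccl4 with 10.4 and 9.83 and Cxcl2 with 3.87 and 6.33. Cxcl10 was seventh in the femur with 3.20 CPM per kilobase and eighth in the tibia with 2.85. Cxcl16 was eighth in the femur with 2.41 and seventh in the tibia with 4.93. Pf4 had 0.826 and 2.42, and Ccl7 was last with 0.0902 and 0.624.

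The first 3 places did not overlap with their neighbours: Ccl6 ran from 338 to 427, Ccl9 from 155 to 219 and Ccl3 from 33.5 to 122 CPM per kilobase over the femur libraries. Ccl3 also stayed above Ccl2, which ran from 9.06 to 26.5. Below them the ranges of Ccl2 and Ccl4, of Ccl4 and Cxcl2, of Cxcl2 and Cxcl10 and of Cxcl10 and Cxcl16 overlapped in the femur, so their order there is not fixed beyond the spread. Pf4 ran from 0.389 to 1.31 in the femur, below the 2.04 to 2.72 of Cxcl16, and Ccl7 reached 0.257.

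**Figure D4:**
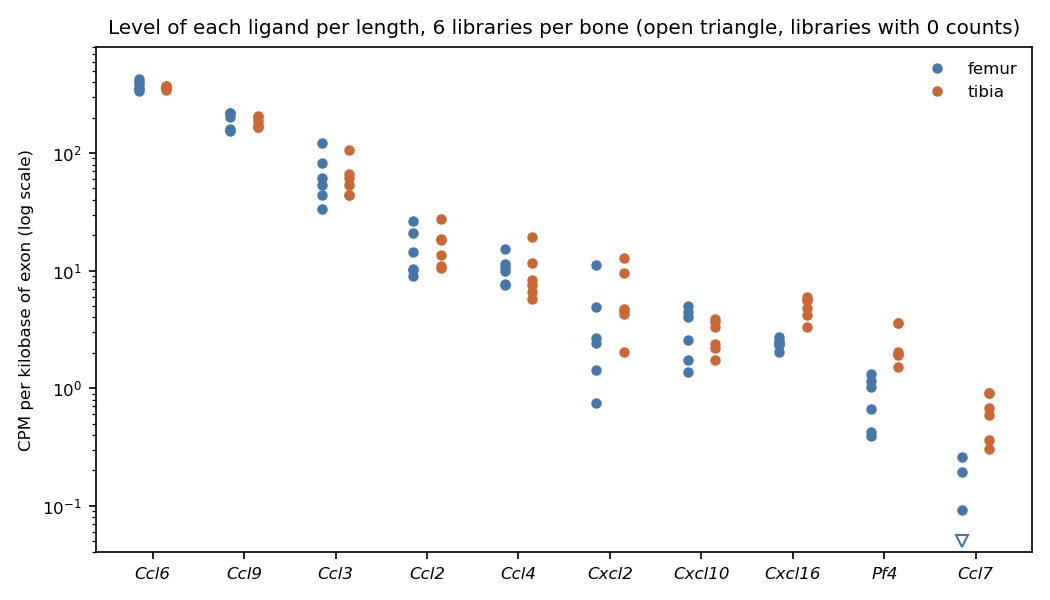
Level of each ligand in CPM per kilobase of exon (log scale) in the 6 femur libraries (blue) and the 6 tibia libraries (orange), ordered by the femur mean; the open triangle marks Ccl7 libraries with 0 counts. Ccl6 and Ccl9 are at 155 or more in every library, and Cxcl16, Pf4 and Ccl7 are the genes whose femur and tibia points do not overlap.

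The receptors were measured in the same cells. Of 24 chemokine receptors 18 were tested, 2 rose and 2 fell, and on sums per mouse and bone 0 were called (edgeR; 5 at an unadjusted p under 0.05). Ccr1, the receptor of Ccl6 and Ccl9, averaged 198 ± 25.9 CPM in the femur and 221 ± 13.7 CPM in the tibia (SD, n = 6 libraries each) and rose by 0.17 ± 0.04 on the log2 scale (edgeR adjusted p = 0.0109). The change of Ccr1 was 0.06 in mouse 7 and 0.28 in mouse 19, a difference that passed the test (edgeR adjusted p = 0.0418). The eosinophil receptor Ccr3 fell by 0.29 ± 0.06 over both mice (edgeR adjusted p = 0.00516), with -0.51 in mouse 7 and -0.09 in mouse 19 (edgeR adjusted p = 0.53), a difference that passed (edgeR adjusted p = 0.00469). Cxcr4, which holds blood cells in the marrow, fell by 0.12 ± 0.04 (edgeR adjusted p = 0.0369). Eosinophil markers summed to 228 to 588 CPM in the femur and 216 to 458 CPM in the tibia, and 3 of the 7, Ccr3 among them, fell; their part in the change of Ccr3 was not tested.

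Cxcr6, Ccr2, Cxcr2 and Cxcr3 were not called over both mice, and no receptor was assigned to Pf4 here. Cxcr6, the receptor of Cxcl16, was rare at 0.729 ± 0.368 CPM in the femur and 0.718 ± 0.275 CPM in the tibia (log2 -0.02 ± 0.38, edgeR adjusted p = 0.985). Ccr2, which binds Ccl2 and Ccl7, was at 2090 ± 260 and 2160 ± 106 CPM (log2 0.05 ± 0.04, edgeR adjusted p = 0.446). Cxcr2, the receptor of Cxcl2, was at 74.4 and 78.5 CPM (log2 0.04 ± 0.07, edgeR adjusted p = 0.82), and Cxcr3, the receptor of Cxcl10, at 2.61 and 2.97 CPM (log2 0.19 ± 0.19, edgeR adjusted p = 0.621).

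Genes for the cleavage, binding and display of chemokines were called more often upward than downward over both mice. Of 20 tested 8 rose and 2 fell, against 3.51% of all genes higher and 3.69% lower, with a median log2 fold change of 0.11. On sums per mouse and bone 4 were higher and 1 lower, where 0.551% of all genes were called in either direction. Mouse 7 was less one-sided, with 6 higher, 4 lower and a median of -0.02. In mouse 19 there were 8 higher and 1 lower, with a median of 0.26. The largest rises were those of the metalloprotease inhibitor Timp1 (1.87 ± 0.52, edgeR adjusted p = 0.0305, at 0.196 CPM in the femur and 0.749 CPM in the tibia), the membrane metalloprotease Mmp14 (1.47 ± 0.11, edgeR adjusted p = 2.4e-09) and the heparan sulfate carrier Sdc4 (1.42 ± 0.25, edgeR adjusted p = 6.6e-04). Timp1, which is among the 8, entered the test through its tibia libraries, as Pf4 did, so its call already depended on a high level there. The change of Sdc4 was 0.61 in mouse 7 (edgeR adjusted p = 0.0733) and 2.56 in mouse 19, a difference that passed (edgeR adjusted p = 4.9e-04), and on sums Sdc4 was not called (edgeR adjusted p = 0.107), nor was Timp1 (edgeR adjusted p = 0.219). Elane, Prtn3 and Ctsg, which also rose, are granulocyte precursor markers as well. The metalloproteases that fell were Mmp9 (-0.36 ± 0.05, edgeR adjusted p = 1.8e-05) and Mmp8 (-0.11 ± 0.03, edgeR adjusted p = 0.0405). Adam10 and Adam17, the proteases known to release Cxcl16 from the membrane, were not called (0.03 ± 0.03 and -0.03 ± 0.04, edgeR adjusted p = 0.735 and 0.661).

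Of 28 genes that control chemokine transcription or mRNA decay, 1 rose and 2 fell, and on sums per mouse and bone 0 were called (edgeR; 6 at an unadjusted p under 0.05). Zfp36l1, which speeds mRNA decay, rose by 0.34 ± 0.08 over both mice (edgeR adjusted p = 0.0141), a call that DESeq2 did not make. Its change was 0.02 in mouse 7 (edgeR adjusted p = 0.925) and 0.68 in mouse 19 (edgeR adjusted p = 1.3e-08), and the difference passed (edgeR adjusted p = 1.6e-05). The NF-kB subunit Rel fell by 0.26 ± 0.05 (edgeR adjusted p = 0.00401). Among 31 other chemokine ligands, 8 were tested, 22 stayed below 1 CPM in every library and 9 of these had 0 counts in all. The 1 that rose was Mif, a cytokine that also binds chemokine receptors (0.36 ± 0.06, edgeR adjusted p = 2.0e-04; edgeR adjusted p = 0.0545 on sums).

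The genes whose pattern was most like that of each ligand were found by Pearson correlation of log2 CPM over the 12 libraries after subtracting the mean of each mouse, among 8507 genes with a mean of at least 10 CPM. This is a description, and the libraries share 2 animals. Cxcl16 was most like the acute phase gene Saa3 (r = 0.972) and Ifitm1 (0.970), and Pf4 most like Atpif1 (0.936) and Fam96a (0.935). Ccl2 was nearest to Fos (0.966) and Dusp1 (0.936), Ccl3 to Jun (0.972) and Fos (0.966), and Cxcl2 to the cytokine Osm (0.979) and the histone gene H3f3b (0.973). For Ccl4 the nearest were 3110002H16Rik (0.921) and the NF-kB regulator Nfkbiz (0.908). For Ccl6 they were Krt80 (0.911) and Fcer1g (0.903), for Ccl9 Tap2 (0.907) and Exoc2 (0.869), and for Cxcl10 Shisa5 (0.906) and Creb3 (0.896).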

How the data were processed

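Macrophages from 6 MSC-treated tibia and 6 untreated femur samples were profiled. The authors deposited raw read counts per gene, 1 column per library, and all columns were matched to samples by title. Per the submitters' processing notes the build was mm10 and the tools included HISAT2, featureCounts and DESeq2; their versions, order and strand setting were not given in the sources. RNA came from a micro column kit with DNase and libraries from a Vazyme mRNA kit, per the labels. Here, edgeR 4.0.16 in R 4.3.3 was run on the counts (TMM, filterByExpr with a minimum count of 10, quasi-likelihood test, two-sided, Benjamini-Hochberg over 11806 genes, threshold 0.05). The contrast over both mice had the mouse as a term; contrasts within mice and of their difference came from 1 mean per mouse and bone. The standard error is the absolute log2 change over the square root of F. CPM used TMM-scaled totals, and lengths were the union of exons in GENCODE M21. For correlations 0.5 was added to CPM. Of 292 list symbols 290 were matched, 10 under another name; 27 rows had names turned into dates (at most 0.194% of counts) and are not named. Libraries of a group differed beyond sampling noise, with 1.39 to 3.25 as chi-square per gene on halved counts. On simulated data for the contrast over both mice, run on 11688 genes, 95% of 1.5-fold and 98% of 2-fold changes were recovered. Within each single mouse 86% of 1.5-fold changes were recovered. Every gene was simulated with the same small spread. These shares therefore do not hold for ligands such as Cxcl2, whose libraries of a group differed by 2.11- to 7.68-fold.

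All 10 ligands and their receptors are named whatever their values; results for some genes that this rule names are not reported here. From each other list up to 3 highest and 3 lowest changes past the threshold are named, plus 4 platelet genes and, per ligand, the 2 most similar genes; genes named beyond this rule (Cxcl9, Adam10, Adam17, Elane, Prtn3, Ctsg and the genes most like the 4 varying ligands) were chosen after their values were seen. The members and lists were chosen with earlier results of these data known. Alternatives were other scalings, DESeq2 1.42.0, other filters, no mouse term, the library number as a block, sums, halved counts and each library left out.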

Additional observations from a re-analysis of the deposited data

Results flagged for a closer look

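For 3 ligands the change between bones differed between the animals by a test of the difference itself (edgeR quasi-likelihood test, adjusted over all genes tested). Values are the log2 change in mouse 19 minus that in mouse 7. Cxcl10 differed by 1.64 ± 0.33 (edgeR adjusted p = 0.0018), with the tibia above the femur mean in 3 of 3 libraries of mouse 19 and in 0 of 3 of mouse 7. Ccl6 differed by 0.22 ± 0.06 (edgeR adjusted p = 0.0151), and Ccl9 differed by 0.20 ± 0.06 (edgeR adjusted p = 0.0307). With 2 animals, these differences describe the pair only.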

How the results depend on the processing

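Cxcl16 kept its direction and its call under all 9 other settings run over both mice (log2 1.00 to 1.03) and without any 1 library. Pf4 could be tested under 7 of them and was called under 5. The count of ligands higher over both mice, 2 in the report, was 4 with no filter on low counts (Ccl7 and Cxcl2 added) and 1 under each of these: a minimum of 5 CPM in 3 libraries, no mouse term, sums per mouse and bone, and halved counts. With no filter, adjusted p-values of Cxcl16 and Cxcl2 fell at nearly the same size of change, so the calls added there are given with caution. The minimum of 5 CPM and the halved counts leave Pf4 out of the test, and for the same reason the count of ligands higher was 1 under both within mouse 7 and within mouse 19. Over all genes, 414 were higher and 436 lower in the tibia; without the mouse term the counts were 50 and 24, and on sums 48 and 17. With the library number within each mouse as a block, they were 239 and 256, and the count of ligands higher stayed at 2. Numbers did not pair the libraries: deviations of same-numbered libraries correlated by -0.063 to 0.012, and 1 of 6 tibia libraries correlated best with its own number. Ccl9 changed sign without the mouse term (-0.007). The cause of these shifts was not tested except where named.

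Leaving out 1 library at a time moved some counts. Over both mice, genes lower ran from 279 to 490. Within mouse 7, genes higher ran from 314 to 602, genes lower from 381 to 621, ligands higher from 1 to 2 and ligands lower from 1 to 2. Within mouse 19, genes higher ran from 226 to 365, genes lower from 116 to 369 and ligands higher from 1 to 3. Ligands whose change was higher in mouse 19 ran from 1 to 4. On sums, genes higher ran from 9 to 82, genes lower from 2 to 25 and ligands higher from 0 to 3. Log2 changes of ligands that were not called crossed 0. Over both mice Ccl3 ran from -0.152 to 0.136, Ccl9 from -0.008 to 0.034 and Cxcl10 from -0.279 to 0.07. Within mouse 19 Ccl2 ran from -0.416 to 0.265, Ccl3 from -0.557 to 0.056, Ccl4 from -0.327 to 0.318 and Cxcl2 from -0.627 to 1.623. For the difference between the mice, Pf4 ran from -0.599 to 0.225, Ccl4 from -0.002 to 0.651 and Cxcl2 from -1.881 to 0.368. On sums Ccl2 ran from -0.011 to 0.332, Ccl3 from -0.161 to 0.124, Ccl4 from -0.321 to 0.019, Ccl9 from -0.015 to 0.026 and Cxcl10 from -0.196 to 0.036. Depth limits Ccl7 and Pf4, whose libraries hold few fragments.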

Other observations

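Among the rarest chemokine ligands, a few that did not pass the filter on low counts were counted more often in the tibia; they were picked after their counts were seen and are given with no test. Cxcl3 (chr5:90786101-90788093), a neutrophil attractant encoded between Pf4 and Cxcl2, had 34 counts over the 6 tibia libraries (2 to 9 each) and 1 over the 6 femur libraries (0 to 1 each), a depth-scaled ratio of 32.3 whose exact 95% counting interval starts at 3.92. Ppbp (chr5:90768518-90770063) had 35 against 10 counts, a ratio of 3.33 (1.22 to 11.8). Ccl22 had 40 against 14 counts, a ratio of 2.71 (1.10 to 7.60). Ccl12, a further Ccr2 ligand, had 23 against 7 counts, a ratio of 3.12 whose interval of 0.864 to 12.1 includes equal levels. Intervals were computed on halved counts and cover counting error only. The eosinophil attractant Ccl24 passed the filter and was not called (log2 1.00 ± 0.38, edgeR adjusted p = 0.114 over both mice, 0.633 in mouse 7 and 0.112 in mouse 19).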
